A study of Mus musculus with 6 samples.

Results

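In Th9 cells that had been exposed to IFN-γ, 141 genes carried at least 2 times as much RNA when the transcription factor IRF1 was missing, once genes of the cytokine, chemokine, TNF, solute carrier and Trim families had been set aside. Lad1, which encodes the anchoring filament protein ladinin, led them with a ratio of 15.0, followed by the muscle troponin gene Tnni1 with 14.0, the membrane protein gene Basp1 with 8.67 and the alpha kinase gene Alpk2 with 7.04. Sorted by known function after their values had been seen, the 141 genes included some of amino acid shortage, of sugar metabolism under low oxygen, of metal binding and of the cell skeleton, a sorting that carries no test. A gene was included if its mean normalized count in Irf1-/- cells was at least 50, if the ratio of the Irf1-/- mean plus 1 to the WT mean plus 1 was at least 2, and if every Irf1-/- library lay above every WT library. Of the 41388 genes listed, 9307 passed the first condition, 171 of these the second and 157 all 3. Left out were 5 genes on the X chromosome, 5 whose symbols marked them as interleukin, solute carrier or Trim genes, and the 6 single genes Batf3, Socs3, Sgk1, Akr1c18, Cyp11a1 and Gm17334. The remaining 141 genes were 140 protein-coding genes and 1 lincRNA gene (AI504432). Because the comparison of the genotypes itself picked these genes, their differences are given as a description, and no test of the same difference is used in their support.

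The libraries, 3 WT and 3 Irf1-/-, came from mouse T-cell cultures on the C57BL/6 background. According to the study's methods these were naive CD4+ T cells, and the labels give magnetic negative selection from spleen and lymph nodes. All 6 cultures grew for 2 days in Th9 medium with IL-2, IL-4, TGF-β and IFN-γ, so that IFN-γ was present in the WT controls as well. The study's general culture methods also name stimulation with antibodies to CD3 and CD28, and an antibody to mouse IFN-γ. The IFN-γ added to cultures is there described as rat protein. The study's methods state that wild-type mice were bought from a supplier while Irf1-/- mice were bred locally, so that genotype and source of the mice cannot be told apart. The unit throughout is the normalized count, in which the reads of a gene are scaled by the size factor computed for that library.

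The 6 libraries held between 5639788 and 13348230 reads on genes, and replicate 3 of each genotype was the deepest. A level of 3 reads, the limit of what a count of 0 allows, corresponded to a normalized count between 1.84 and 4.16. WT replicates 1 and 2 contained Y-linked transcripts whereas the other 4 libraries contained Xist, so that sex and genotype were partly confounded. Irf1 itself was still read at 2968, 2907 and 2659.8 in WT and at 1780.2, 1729 and 1476 in Irf1-/- libraries, 58.4% of the WT mean. The 12 T-cell markers summed to between 25013 and 27275 in every library. Of these markers limma called 1 higher and 1 lower, against 11.4% and 12.4% of all genes tested. The 12 myeloid markers summed to between 621 and 832 in WT and between 292 and 1399 in Irf1-/- libraries and were highest in Irf1-/- replicate 2. The 6 that were tested had a median log2 fold change of 0.82, and 0 were called higher. Ctss and Mpeg1 were called lower in Irf1-/- cells (limma, adjusted p = 4.69e-05 and 0.0367). Ctss alone stood at 559, 536 and 480 in WT libraries 1 to 3, where the sums were 705, 832 and 621. In Irf1-/- libraries 1 to 3 Ctss stood at 260, 275 and 226, where the sums were 564, 1399 and 292. Lyz2 and Cd14 were not called, and varied within genotypes, Lyz2 from 11.2 to 96.2 in WT and from 7.03 to 559 in Irf1-/- libraries and Cd14 from 3.74 to 30.1 and from 3.83 to 334, both with Irf1-/- replicate 2 the highest and Irf1-/- replicate 1 the next. The 6 B-cell markers summed to 19.97 to 26.4 in WT and 23.0 to 40.2 in Irf1-/- libraries, with Pax5 at 0 throughout, and the NK-cell, red-cell and neutrophil markers summed to less than 10 in each library. In bulk RNA, a larger share of cells using a gene and more RNA per cell cannot be told apart.

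IRF1 is induced by IFN-γ and binds the interferon-stimulated response element, by which it switches on many interferon-inducible genes. Th9 cells arise when IL-4 and TGF-β act together on activated CD4+ T cells, and they make IL-9. Many of the genes described here are best known from other cells, such as epithelium, muscle and neurons, and others belong to the general responses to amino acid shortage, low oxygen and free metal ions.

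The ratio of means had a median of 2.44 over the 141 genes. It lay below 2.5 in 75 of them, at 3 or above in 43, at 4 or above in 22 and at 5 or above in 9. The WT means ran from 5.11 to 3706 with a median of 61.9, and the Irf1-/- means from 51.8 to 7671 with a median of 163. All 141 passed a mean of 10 over the 6 libraries, the limit for testing, which 11379 genes passed in all, so that they made up 1.24% of the genes tested. In limma's test with Benjamini-Hochberg adjustment over these genes, 11.4% of all genes tested were higher and 12.4% lower in Irf1-/- cells at an adjusted p below 0.05, and in 19.7% every Irf1-/- value lay above every WT value. All 141 were called higher by limma, a count that follows from how they were chosen and from which nothing is read. Counts of other genes called, in families and lists alike, are to be read against the 11.4% and 12.4%. Counts of list genes among the 141 are to be read against the 1.24%. The lists were chosen with earlier results of these data known, and the families after the values had been seen. The median log2 fold change was 1.29 over the 141 genes and -0.0037 over all genes tested. By level, the genes were mostly of modest abundance, since their median stood at the 21.5 percentile of the genes tested by WT mean and at the 35.8 percentile by Irf1-/- mean.

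**Figure D1:**
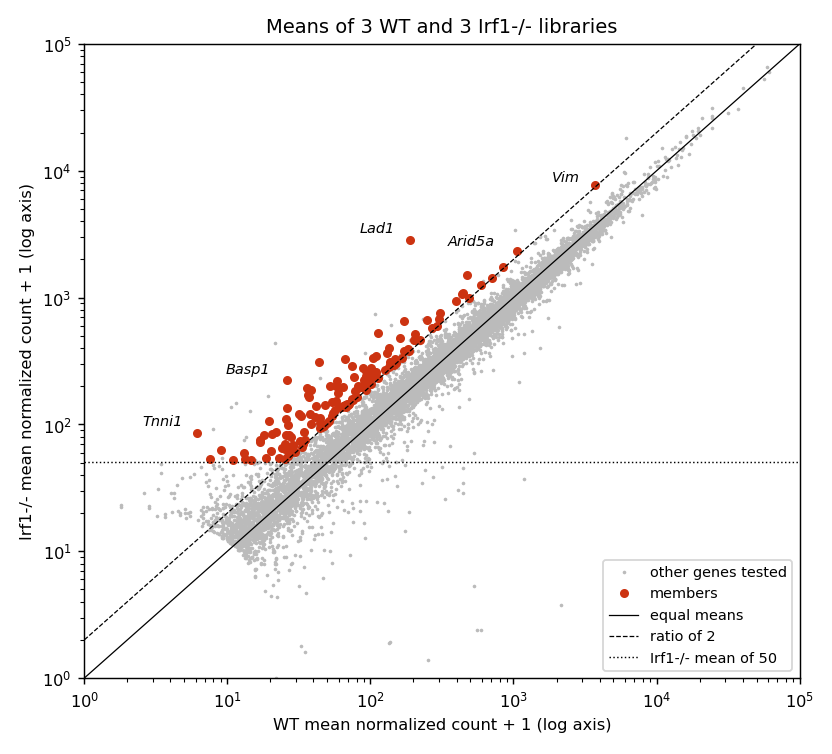
Mean normalized count plus 1 of the 3 WT libraries (horizontal, log axis) against that of the 3 Irf1-/- libraries (vertical, log axis) for the 11379 genes tested, with the 141 genes described here in red and the others in grey. The red points lie above the dashed line of a ratio of 2 and the dotted line of an Irf1-/- mean of 50 by choice, and among them Lad1 stands farthest from the line of equal means.

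Just inside the limit on the ratio stood Ddit3, Dennd5a and Ecm1 with 2.00, 2.01 and 2.01, and just outside it Pdlim7, Lgals1 and Smox with 1.99 each. Just inside the limit on the mean stood Rbfox2 and Map1b with 51.8 each and Mmp11 with 52.1, and just outside it Aplp1, Sdc4 and Enthd1 with 49.6, 49.0 and 48.4. The gap between the genotypes differed widely among the 141 genes. In 49 of them the lowest Irf1-/- library exceeded the highest WT library at least 2-fold, whereas in 5 (Ddit3, Lmna, Clybl, Shf and Espn) this gap was between 1.09-fold and 1.23-fold. Beyond the genes with the largest ratios or levels, the genes named below were picked for their function or position after their values had been seen, and the sorting into 11 functional groups was also made with the values known.

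Lad1 (GRCm38, chr1:135818598-135833342, + strand) and Tnni1 (chr1:135779434-135810989, + strand) are neighbours, with 7609 bases between them. Ladinin belongs to the anchoring filaments that hold epithelia to the basement membrane, and Tnni1 encodes the inhibitory troponin subunit of slow skeletal muscle fibres. Lad1 was read at 187, 231 and 149 in the WT and at 2953, 2767 and 2852 in the Irf1-/- libraries, or 189 ± 40.8 against 2857 ± 93.1 (SD, n = 3). Per kilobase of annotated exon, its mean level rose from the 45.8 percentile of the genes tested in WT to the 96.8 percentile in Irf1-/- cells. Tnni1 stood at 4.99, 4.81 and 5.53 in WT and at 83.6, 83.2 and 86.3 in Irf1-/- libraries. The lowest Irf1-/- library thus exceeded the highest WT library 15.0-fold for Tnni1 and 11.99-fold for Lad1, the widest gaps among the 141 genes.

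The difference at this locus did not extend to all of its genes. On the far side of Lad1 lies Tnnt2, the gene of cardiac troponin T, at 2.496, 6.01 and 3.07 in WT and 43.0, 41.6 and 25.6 in Irf1-/- libraries. Its Irf1-/- mean of 36.7 kept it below the limit of 50, and limma gave it a log2 fold change of 2.99 with a standard error of 0.378 and an adjusted p of 0.000392. On the other side of Tnni1, Phlda3 and Csrp1 were lower in Irf1-/- cells, with log2 fold changes of -1.41 (adjusted p = 0.0227) and -0.32 (adjusted p = 0.00393 in limma). Phlda3 stood at 321 in WT replicates 1 and 2, but at 110 in WT replicate 3, below Irf1-/- replicate 1 with 118. Of the 8 annotated troponin genes 4 were tested, and the 3 beside Tnni1 were all called higher, as were 11.4% of all genes tested. These were Tnnt2 and, on chromosome 7, Tnnt1 and Tnni3, for which limma gave log2 fold changes of 0.83 (adjusted p = 0.00341) and 1.11 (adjusted p = 0.0139). Of the 8 other genes tested of a list of 13 epithelial anchoring and keratin genes, 3 (Dst, Plec and Itga6) were called higher and 1 (Pkp4) lower, with log2 fold changes of 0.44, 0.28, 0.26 and -0.43 (adjusted p between 0.00427 and 0.0352 from limma).

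The promoters of both neighbours are shown because their RNA differed together. RefSeq places them, in GRCm38.p6, at chr1:135818348-135818647 for Lad1 and chr1:135799171-135799470 for Tnni1, where the RefSeq start of Tnni1 lies inside the longer gene model used for the counts. Each runs from 250 bases before to 50 bases after the start. Capitals mark the letters of a GATA motif (AGATAA or its reverse) in Lad1 and of a RUNX motif (TGTGGT) in Tnni1.
Lad1: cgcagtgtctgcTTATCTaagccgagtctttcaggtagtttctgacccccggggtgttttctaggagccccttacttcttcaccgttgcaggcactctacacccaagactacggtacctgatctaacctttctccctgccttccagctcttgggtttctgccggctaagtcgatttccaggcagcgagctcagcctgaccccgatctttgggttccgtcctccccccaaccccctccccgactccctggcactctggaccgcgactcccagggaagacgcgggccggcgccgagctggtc
Tnni1: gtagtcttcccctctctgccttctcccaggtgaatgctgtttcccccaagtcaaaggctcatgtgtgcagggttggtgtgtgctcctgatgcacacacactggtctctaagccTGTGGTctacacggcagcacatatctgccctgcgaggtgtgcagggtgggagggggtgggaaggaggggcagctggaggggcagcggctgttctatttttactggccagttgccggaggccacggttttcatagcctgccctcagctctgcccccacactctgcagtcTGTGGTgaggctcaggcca
Neither window holds the letters AANNGAAA of the interferon-stimulated response element on either strand. This says that the letters are not within these 300 bases, and nothing of binding elsewhere.

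**Figure D2:**
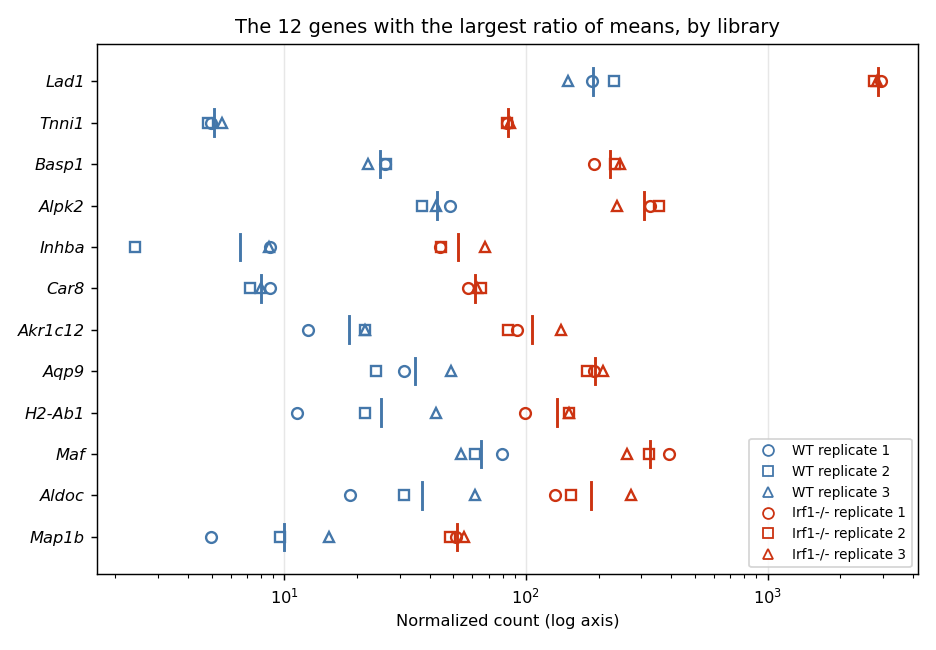
Normalized counts (log axis) of the 12 genes with the largest ratio of means, by library, with WT in blue, Irf1-/- in red, a symbol for each replicate and a vertical bar at each mean of 3 libraries. For Lad1 and Tnni1 the genotypes are more than 10-fold apart, and for H2-Ab1, Inhba, Aldoc and Map1b the WT libraries are themselves spread widely.

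Genes of the cell skeleton and of small GTPases formed the largest functional group, with 26 genes and a median ratio of 2.497. Basp1 (chr15:25363277-25413764, - strand) encodes a protein of the inner face of the membrane first known from nerve growth cones. It was read at 26.2, 26.4 and 22.1 in WT and at 192, 233 and 246 in Irf1-/- libraries, so that each genotype was tight and the means were 8.67-fold apart. Its relatives Marcks and Marcksl1, which share its role in binding membrane phosphoinositides, were on the contrary called lower, with log2 fold changes of -0.33 (adjusted p = 0.0387) and -0.77 (adjusted p = 0.0320 from limma). For Marcksl1 the genotypes overlapped, since WT libraries 1 to 3 stood at 1154, 1114 and 613 and Irf1-/- libraries at 621, 624 and 412, and for Marcks WT replicate 3 with 588 lay close to the highest Irf1-/- library with 576. Map1b, a microtubule-associated protein best known from axons, went from 4.99, 9.62 and 15.4 to 51.3, 48.5 and 55.6, with the WT libraries spread about 3-fold.

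Vim, which encodes the intermediate filament vimentin, had the highest level per kilobase among the 141 genes in both genotypes. Its values were 3419, 3640.3 and 4057 in WT and 7157, 7992 and 7864 in Irf1-/- libraries, a ratio of 2.07. Lmna, the gene of the nuclear lamins A and C, went the same way with 102, 118 and 48.6 against 258, 283 and 128, where replicate 3 was low in both genotypes and the lowest Irf1-/- value barely exceeded the highest WT value. The other lamins did not follow, since Lmnb1 was lower by limma (log2 fold change -0.33, adjusted p = 0.00869) and Lmnb2 had a log2 fold change of 0.17 (adjusted p = 0.112).

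Annexins are calcium-dependent membrane-binding proteins, and 2 of them were among the 141 genes. Anxa3 was read at 136, 169.5 and 207 in WT and 684, 660.1 and 606 in Irf1-/- libraries, a ratio of 3.79, and Anxa2 at 77.4, 86.6 and 112 and 207, 252 and 258, a ratio of 2.58. Of the 6 other annexins tested, Anxa5 and Anxa6 were called higher with log2 fold changes of 0.33 and 0.31 (adjusted p = 0.0175 and 0.00434 from limma) and none lower, against 11.4% and 12.4% of all genes tested. Dennd5a, an activator of Rab GTPases, stood at 612, 660.0 and 843 and 1229.8, 1218 and 1800.3, and was just above the limit on the ratio. The rest of this group had ratios between 2.04 and 4.51 and included the guidance and motility genes Nav1, Enah, Srgap3 and Arhgef11, the myosin gene Myo1e, the actin-binding genes Gsn and Espn, and the GTPase genes Rab34 and Rhoq.

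Chromosome 1 carried 16 of the 141 genes among its 643 tested genes, or 2.49%, and chromosome 3 carried 14 of 530, or 2.64%, against 1.24% overall. Among intervals of 5 Mb that begin at one of the 141 genes, chr1:130826684-135826684 held the largest number of them, 8 of 50 tested genes or 16%, and the overlapping interval that begins at Pik3c2b held a larger share, 7 of 36 or 19.4%. In order they were Pigr, Pik3c2b, Atp2b4, Cyb5r1, Rnpep, Nav1, Tnni1 and Lad1. Cyb5r1, a cytochrome b5 reductase, was read at 382, 373 and 438 in WT and 909.8, 907 and 988 in Irf1-/- libraries. Rnpep, the gene of aminopeptidase B, stood at 493, 409 and 424 and 1090.1, 1089 and 1065, and Atp2b4, a calcium pump of the plasma membrane, at 446, 416 and 601 and 909.8, 962 and 1120.3. These 3 genes were well expressed in both genotypes, and their ratios of 2.35, 2.44 and 2.04 were close to one another.

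Of the 42 other genes tested in this interval, 5 were called higher by limma and 12 lower, against 11.4% and 12.4% of all genes tested. The 5 were Il10 and Il24 at its far end, with log2 fold changes of 2.79 and 1.04, and Fcmr, Dstyk and Ube2t with 1.04, 0.55 and 0.86. Among the lower genes, Ctse had the largest change of the interval, with a log2 fold change of -4.01, and Nuak2 had -2.05. Both lay between Pigr and Pik3c2b.

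**Figure D3:**
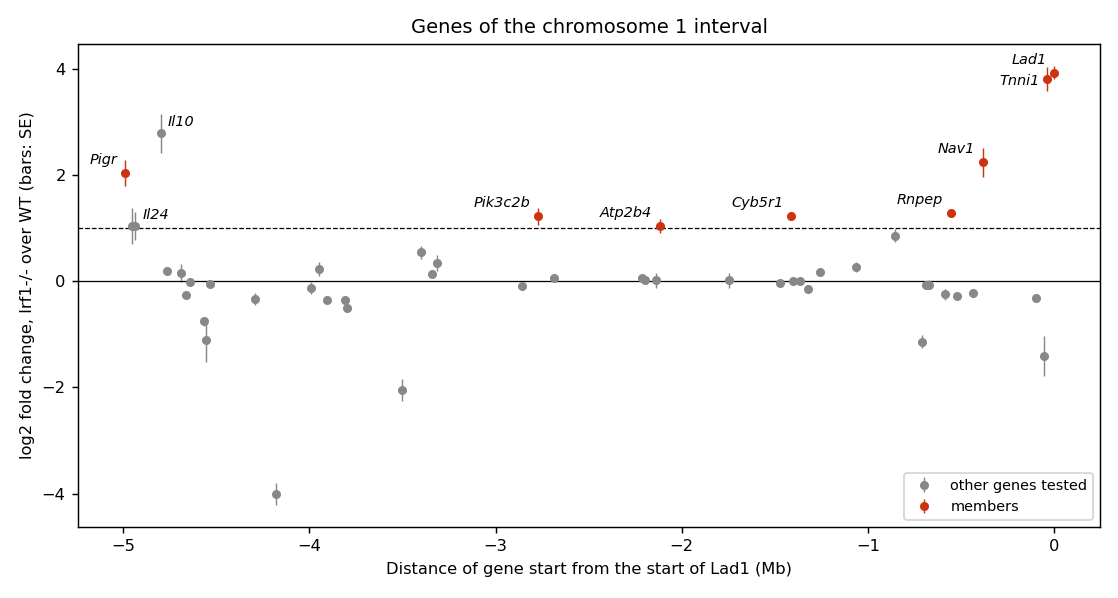
Log2 fold change of Irf1-/- over WT cells (vertical; bars show the standard error from limma) for the 50 tested genes of the chromosome 1 interval against the distance of each gene's start from that of Lad1 in Mb (horizontal). The 8 genes described here, in red and named, lie above 1 (dashed). The grey genes between them lie mostly near 0, but Ctse lies at -4.01, Nuak2 at -2.05 and Il10 at 2.79.

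In 8 cases a pair of the 141 genes lay within 100 kb of each other. Besides Tnni1 and Lad1 these were Neurl3 and Arid5a, Gatm and AA467197, Sema4a and Lmna, Aldh1l2 and Appl2, Mt2 and Mt1, Akr1c13 and Akr1c12, and Ctla2b and Ctla2a, of which the last 3 are pairs of paralogs. On chromosome 11, where Irf1 lies, 12 of 980 tested genes were among the 141. P4ha2 was the nearest at 0.322 Mb from Irf1, followed by the copper chaperone gene Atox1 at 1.67 Mb and Timd2 at 7.06 Mb. Atox1 was read at 285, 266 and 253 in WT and 604, 619.9 and 504 in Irf1-/- libraries and Timd2, which encodes a ferritin receptor, at 171, 184 and 193 and 376, 299.6 and 511. Whether their differences come with the targeted chromosome rather than with the loss of IRF1 cannot be told apart here.

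Receptors and other surface proteins made up 22 of the 141 genes, with a median ratio of 2.52. H2-Ab1, the beta chain of the MHC class II molecule I-A, had the largest ratio among them with 5.17. It was read at 11.2, 21.6 and 42.4 in WT and at 99.1, 151 and 151 in Irf1-/- libraries, a wide spread in WT with replicate 3 the highest. Other genes of the class II pathway did not move together, since Cd74, the invariant chain, had a log2 fold change of 0.63 (adjusted p = 0.000847), H2-Eb1 of -0.05 (adjusted p = 0.930) and H2-DMa of -0.58 (adjusted p = 0.0130 from limma). B-cell and myeloid cells express these genes at high levels, and their part in the H2-Ab1 values was not tested.

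Acvrl1 encodes the type I receptor ALK1 of the TGF-β family, and went from 34.9, 25.2 and 47.3 in WT to 169.5, 186 and 153 in Irf1-/- libraries, a ratio of 4.63. Of the 7 other tested type I and type II receptors of that family, 3 were called higher (11.4% of all genes tested), Bmpr1a by 0.73 on the log2 scale (adjusted p = 0.00257), Acvr1 by 0.53 (adjusted p = 0.0237) and Acvr1b by 0.30 (adjusted p = 0.0435 from limma). The TGF-β receptors proper, Tgfbr1 and Tgfbr2, had log2 fold changes of -0.12 and -0.14 (adjusted p = 0.120 and 0.349). The list of 15 tested TGF-β response genes held none of the 141, with 2 called higher (Id1 and Id2) and 3 lower (Ski, Skil and Runx1).

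Cd53, a tetraspanin of leukocytes, was the best expressed surface gene per kilobase, at 505, 524 and 759 in WT and 989, 1101 and 1653 in Irf1-/- libraries, where replicate 3 was the highest of each genotype. Gpr83, a receptor enriched in regulatory T cells, stood at 225, 231 and 206 and 466, 413 and 511. Of the 5 other regulatory T-cell markers, Foxp3 and Ikzf4 were called higher, with log2 fold changes of 0.89 and 0.36 (adjusted p = 5.8e-05 and 0.00153 from limma), and Ikzf2 lower with -0.89 (adjusted p = 0.000241). The semaphorin gene Sema4a, a ligand in contacts between T cells and antigen-presenting cells, was read at 198, 179 and 178 and 381, 424 and 328, and its relative Sema4f was also included with a ratio of 2.06. Sema4b, Sema4c and Sema4d were not called. Others of this group were the tissue factor gene F3, the immunoglobulin transporter gene Pigr, the precursor gene App, the prion gene Prnp, the Wnt receptor gene Fzd7, podoplanin (Pdpn), Cd38, Vldlr and Lrp1, with ratios between 2.05 and 4.59.

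Secreted and matrix proteins accounted for 10 genes. Inhba encodes the subunit of activin A, a ligand of the TGF-β family, and was close to the detection limit in WT. Its values were 8.74, 2.404 and 8.61 in WT and 44.2, 44.4 and 67.7 in Irf1-/- libraries, a ratio of 7.003 that rests on few WT reads, and it was the only tested gene of the 5 activin and inhibin subunits. Ctla2a and Ctla2b encode small inhibitors of cysteine proteases. Ctla2a was read at 86.1, 114 and 136 in WT and 475, 556 and 539 in Irf1-/- libraries, and Ctla2b at 15.0, 14.4 and 18.4 and 64.5, 72.1 and 78.0, so that their ratios were 4.63 and 4.28. They lie 36.7 kb apart on chromosome 13. Of the 50-base words, 74.0% in the Ctla2b transcript and 30.1% in that of Ctla2a also occur in transcripts of other genes, mainly of Gm49391. The levels of both are therefore uncertain. Ecm1, a matrix protein gene typical of Th2 cells, stood at 98.6, 101 and 74.99 and 156, 190.0 and 208. The laminin gene Lama5, the fibulin gene Fbln2, the protease gene Mmp11, the natriuretic peptide gene Nppc and Angptl6 completed this group together with Fam198a.

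The 2 aquaporins Aqp9 and Aqp3 both conduct glycerol as well as water. Aqp9 went from 31.2, 24.0 and 49.2 in WT to 191, 179 and 209 in Irf1-/- libraries, a ratio of 5.42, and Aqp3 from 99.8, 67.3 and 60.2 to 259, 294 and 154, a ratio of 3.08. Replicate 3 was the highest of its genotype for Aqp9 and the lowest for Aqp3. Aqp11, the remaining aquaporin tested, had in limma a log2 fold change of -0.30 at an adjusted p of 0.641.

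Kinases, phosphatases and adaptors of signalling numbered 16. Alpk2, an atypical kinase of the alpha kinase family, was read at 48.7, 37.3 and 42.4 in WT and 327, 356 and 238 in Irf1-/- libraries. Of the 4 other alpha kinase genes tested, the elongation factor kinase gene Eef2k was called higher (log2 fold change 0.52, adjusted p = 0.0178) and the channel kinase gene Trpm7 lower (-0.28, adjusted p = 0.00865 from limma). Plcd1, a phospholipase C, went from 34.9, 45.7 and 28.9 to 174, 172 and 141, a ratio of 4.35. Tec, a non-receptor tyrosine kinase, stood at 39.9, 43.3 and 86.1 in WT and 192, 207 and 197 in Irf1-/- libraries. Other kinase and phosphatase genes, namely Fes, Matk, Pik3c2b, Camkk1, Ptpn5 and Ppm1j, had ratios between 2.22 and 3.02.

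Regulators of transcription and RNA numbered 14. Maf, a leucine zipper factor that promotes IL-4 and IL-10 in helper T cells, was read at 79.9, 61.3 and 54.1 in WT and 393, 322 and 263 in Irf1-/- libraries, a ratio of 4.94. Arid5a, an RNA-binding protein that stabilises cytokine transcripts, stood at 951, 918 and 1282 and 2274, 2312 and 2358. Tent5a, a poly(A) polymerase, went from 362, 392 and 659 to 1380.2, 1512 and 1666, where WT replicate 3 was well above the other two. For the leucine zipper gene Nfil3, a target of IL-2 signalling, the WT values were 175, 153 and 282 and the Irf1-/- values 396, 445 and 553. The AP-1 gene Fosl2 had 71.1, 78.1 and 75.6 and 135, 149.8 and 183. The B-cell coactivator gene Pou2af1, the AP-1 repressor gene Jdp2 and Creb3l2 were also included.

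Lists of genes that respond to IL-4 or IL-2, which were in the medium, and lists for other responses were looked at beside these. Their counts are to be read against the 11.4% of all genes tested that were called higher and the 12.4% called lower. Of 14 tested Th2 and IL-4 response genes other than cytokines, 4 (Maf, Epas1, Ecm1 and Plcd1) were among the 141, as were 1.24% of all genes tested. Of the other 10, 6 were called higher by limma and none lower. The 6 were Nt5e, Crem, Atf5, Ptgir, Rbpj and Mapk12, with log2 fold changes between 0.35 and 1.57, while Gata3 had 0.06 (adjusted p = 0.769). Of 12 STAT3 response genes, Maf and Fosl2 were among the 141, and of the other 10, 4 (Rora, Vegfa, Batf and Ikzf3) were higher and 1 (Bcl6) lower. The IL-2 (STAT5) list held Nfil3 and 15 others, of which 3 were higher and 3 lower. Of the 17 other immediate early genes tested 1 (Fosl1) was higher and 6 lower, and Ier3 was the member among the 141, at 32.4, 27.7 and 39.3 in WT and 58.5, 122 and 78.0 in Irf1-/- libraries, with replicate 2 over 1.5-fold above both other Irf1-/- libraries. None of the 5 tested aryl hydrocarbon receptor genes and none of the 6 tested eicosanoid genes was among the 141, with 1 lower in the first list, and 2 higher and 1 lower in the second.

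The group of amino acid and integrated stress response genes comprised 11 genes with a median ratio of 2.24. When amino acids run short, the kinase GCN2 raises the translation of ATF4, which switches on transporters and enzymes for amino acids together with its own regulators Ddit3 (CHOP), Trib3 and Nupr1. Trib3 was read at 269.6, 254 and 394 in WT and 761, 760.0 and 763 in Irf1-/- libraries, so that the Irf1-/- libraries were nearly identical. Nupr1 stood at 48.7, 55.3 and 70.7 and 166, 179 and 180.2, and Ddit3 at 131, 129 and 235 and 263, 255 and 475, where replicate 3 was the highest of each genotype. Among the enzymes, the mitochondrial PEPCK gene Pck2 went from 739, 707 and 1102 to 1731, 1739 and 1797, and the mitochondrial folate gene Aldh1l2 from 132, 115 and 231 to 515, 398 and 517. The cysteine synthesis gene Cth stood at 248, 242 and 408 in WT and 644, 619 and 753 in Irf1-/- libraries, and the proline synthesis gene Pycr1 at 125, 105 and 219 and 288, 284 and 348.

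Sensors of amino acids for the growth kinase complex mTORC1 were found in the same group. Rragd, a Rag GTPase that recruits mTORC1 to lysosomes, was read at 398, 414 and 503 in WT and 1104, 999.9 and 1087 in Irf1-/- libraries, whereas its relatives Rraga, Rragb and Rragc were not called. Castor1, an arginine sensor, stood at 48.7, 63.7 and 78.1 and 116, 130.4 and 173, and its paralog Castor2 at 51.2, 42.1 and 42.4 and 94.3, 80.4 and 111. Of 14 tested ATF4 response genes, Trib3, Ddit3 and Nupr1 were among the 141, as were 1.24% of all genes tested. Of the other 11, 6 were called higher and 1 lower by limma, against 11.4% and 12.4% of all genes tested. Asns, the asparagine synthetase gene, lay just short of the ratio of 2, at 0.99 on the log2 scale (adjusted p = 0.00153), while Atf4 itself, Psat1, Phgdh, Shmt2 and Sesn2 had log2 fold changes between 0.26 and 0.36. Atf3 was lower, with -0.51 (adjusted p = 0.0259).

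In 10 of these 11 genes replicate 3 was the highest library of WT, and in 10 of 11 it was the highest of Irf1-/-. The median ratio of WT replicate 3 to the mean of WT replicates 1 and 2 was 1.504. Within replicate 3 the median ratio of Irf1-/- to WT was 2.16, and within replicates 1 and 2 it was 2.48. That each gene was higher in Irf1-/- cells in both subsets follows from the condition that no Irf1-/- library overlap a WT library.

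The promoters of 4 of these genes are shown because they contain TGATGNAA, the core letters of the amino acid response element that ATF4 and CHOP bind, on either strand and in capitals below. They were at chr2:152344011-152344310 (Trib3, - strand), chr7:126625421-126625720 (Nupr1, - strand), chr11:120643699-120643998 (Pycr1, - strand) and chr14:55540016-55540315 (Pck2, + strand) in RefSeq's GRCm38.p6.
Trib3: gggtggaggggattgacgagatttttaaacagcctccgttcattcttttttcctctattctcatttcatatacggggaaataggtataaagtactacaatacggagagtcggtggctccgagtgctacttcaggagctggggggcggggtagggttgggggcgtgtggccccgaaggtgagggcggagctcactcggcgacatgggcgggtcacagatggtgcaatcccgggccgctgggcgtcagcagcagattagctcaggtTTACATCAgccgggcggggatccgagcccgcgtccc
Nupr1: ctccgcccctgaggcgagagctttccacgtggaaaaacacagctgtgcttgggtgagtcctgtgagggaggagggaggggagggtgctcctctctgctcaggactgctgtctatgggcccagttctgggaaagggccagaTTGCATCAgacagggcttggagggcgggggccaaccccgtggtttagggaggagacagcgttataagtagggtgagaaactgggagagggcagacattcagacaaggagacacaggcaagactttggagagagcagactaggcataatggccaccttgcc
Pycr1: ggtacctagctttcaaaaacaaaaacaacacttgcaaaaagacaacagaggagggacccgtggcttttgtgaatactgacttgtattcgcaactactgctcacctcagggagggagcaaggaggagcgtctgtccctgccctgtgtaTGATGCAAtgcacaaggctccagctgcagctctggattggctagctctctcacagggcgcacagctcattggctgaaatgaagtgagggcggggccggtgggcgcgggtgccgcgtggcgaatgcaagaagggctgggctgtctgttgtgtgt
Pck2: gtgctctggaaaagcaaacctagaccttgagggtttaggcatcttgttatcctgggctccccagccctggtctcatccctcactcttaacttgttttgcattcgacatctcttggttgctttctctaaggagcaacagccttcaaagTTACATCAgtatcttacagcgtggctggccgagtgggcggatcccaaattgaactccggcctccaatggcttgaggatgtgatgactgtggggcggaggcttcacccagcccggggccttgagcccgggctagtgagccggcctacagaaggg
The match begins 110 bases before the start in Nupr1, 103 bases before it in Pycr1 and Pck2, and 14 bases after it in Trib3. Over all 119 genes with a promoter sequence, 6 or 5.04% held these letters on either strand, against 2.09% of the 8912 promoters of genes tested, while on the strand of the gene alone the shares were 0.840% and 0.886%. The other matches were in Arid5a and Ecm1, while the promoters of Ddit3, Rragd, Castor1 and Castor2, from the same group, did not hold the letters. This motif was chosen after the genes had been seen.

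**Figure D4:**
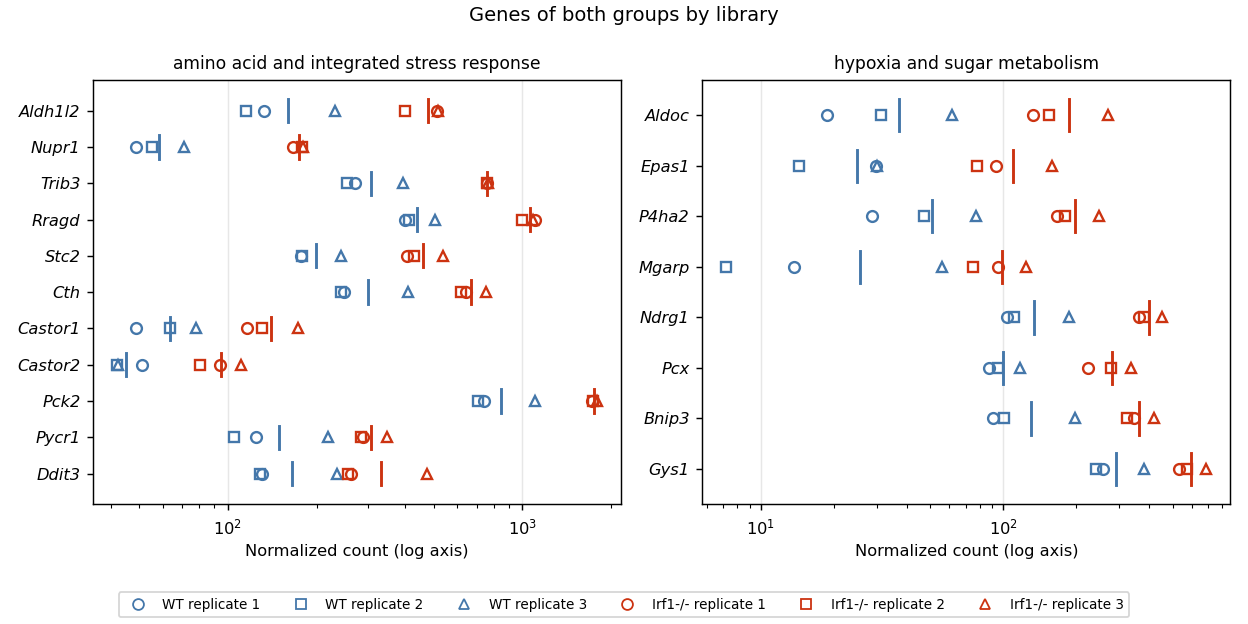
Normalized counts (log axis) by library for the 11 amino acid and integrated stress response genes (left) and the 8 hypoxia and sugar metabolism genes (right), with WT in blue, Irf1-/- in red, a symbol for each replicate and a vertical bar at each mean of 3 libraries. Replicate 3 (triangles) is the highest WT library in 10 of the 11 genes on the left and in all 8 on the right.

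Genes of hypoxia and sugar metabolism numbered 8 and had a median ratio of 3.35. This was the highest of the 11 groups over all libraries, but not within replicate 3, where secreted and matrix proteins had 3.28 and kinases 2.78, nor against WT replicate 3 alone, where the hypoxia genes had 2.25 and channels and pumps 3.01. Low oxygen stabilises the transcription factors HIF-1α and HIF-2α, which raise glycolysis and mitochondrial turnover. Epas1, the gene of HIF-2α, was read at 30.0, 14.4 and 30.1 in WT and 93.1, 77.7 and 158 in Irf1-/- libraries, while Hif1a had in limma a log2 fold change of 0.06 at an adjusted p of 0.851. Aldoc, a glycolytic aldolase, went from 18.7, 31.3 and 61.5 to 133, 154 and 272, and the major isoform Aldoa had a log2 fold change of 0.48 (adjusted p = 0.00178). P4ha2, a collagen prolyl hydroxylase subunit, stood at 28.7, 46.9 and 77.5 in WT and 167, 180.3 and 248 in Irf1-/- libraries.

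The mitochondrial genes Mgarp and Bnip3 belonged here as well. Mgarp was read at 13.7, 7.21 and 55.9 in WT and 95.5, 74.9 and 125 in Irf1-/- libraries, so that WT replicate 3 alone was several times the other WT libraries. Bnip3, a receptor for mitophagy, stood at 91.1, 101 and 199 and 346, 323 and 421, and 21.9% of the 50-base words of its transcript also occur in another annotated gene. The stress gene Ndrg1 went from 104, 111 and 187 to 364, 380.0 and 454, pyruvate carboxylase (Pcx) from 87.4, 94.97 and 117 to 224, 279 and 337, and muscle glycogen synthase (Gys1) from 257, 242 and 379.9 to 531, 573 and 689. In all 8 genes replicate 3 was the highest library of WT and of Irf1-/- cells alike. WT replicate 3 exceeded the mean of WT replicates 1 and 2 by a median of 1.88-fold, and the median ratio of Irf1-/- to WT was 2.64 within replicate 3 and 3.59 within replicates 1 and 2. The letters ACGTG, the core of the hypoxia response element, stood in 27.7% of the promoters of the 141 genes and in 27.0% of those of all genes tested.

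The metal and haem group held Mt1, Mt2, Atox1 and Hmox1. Metallothioneins bind zinc, copper and cadmium, and their genes are switched on by the zinc sensor MTF1. Mt1 was read at 96.1, 99.8 and 129 in WT and 337, 387 and 315 in Irf1-/- libraries, a ratio of 3.18, and Mt2 at 23.7, 27.7 and 25.2 and 59.7, 81.8 and 55.0, a ratio of 2.51. Haem oxygenase 1 (Hmox1) had a ratio of 2.12. Unlike in the preceding groups, replicate 3 was the highest WT library in 1 of these 4 genes and the highest Irf1-/- library in 0 of 4.

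Mt2 and Mt1 lie 5514 bases apart on chromosome 8 and are the only tested genes of the 4 metallothioneins. Their promoters, chr8:94172368-94172667 for Mt2 and chr8:94178839-94179138 for Mt1 on the + strand of GRCm38.p6 in RefSeq, are shown because the pair moved together. Capitals mark the metal response core TGCNCNC on either strand.
Mt1: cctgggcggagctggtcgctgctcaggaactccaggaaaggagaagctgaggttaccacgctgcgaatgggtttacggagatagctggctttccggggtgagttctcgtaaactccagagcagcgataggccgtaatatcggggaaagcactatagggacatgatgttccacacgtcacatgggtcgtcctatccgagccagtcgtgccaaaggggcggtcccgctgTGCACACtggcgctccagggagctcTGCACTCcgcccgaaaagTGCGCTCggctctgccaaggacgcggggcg
Mt2: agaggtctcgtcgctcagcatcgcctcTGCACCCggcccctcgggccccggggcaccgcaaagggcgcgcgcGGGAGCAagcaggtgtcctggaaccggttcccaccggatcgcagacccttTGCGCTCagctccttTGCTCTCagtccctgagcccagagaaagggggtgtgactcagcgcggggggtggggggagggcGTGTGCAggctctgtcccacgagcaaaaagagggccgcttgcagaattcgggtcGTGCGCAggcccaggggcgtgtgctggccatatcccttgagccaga
The letters occurred at 3 places in Mt1 and at 6 in Mt2. They are frequent, being found in 61.3% of the promoters of the 141 genes and in 60.1% of those of all genes tested.

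Other enzymes and lipid carriers numbered 15. Car8, a carbonic anhydrase homologue without enzyme activity, was read at 8.74, 7.21 and 7.99 in WT and 57.3, 65.2 and 62.6 in Irf1-/- libraries. Akr1c12 and Akr1c13 encode aldo-keto reductases and lie 62.6 kb apart on chromosome 13. Akr1c12 stood at 12.5, 21.6 and 21.5 in WT and 91.9, 84.6 and 140.0 in Irf1-/- libraries and Akr1c13 at 47.4, 55.3 and 70.7 and 143, 184 and 327, each with replicate 3 the highest in Irf1-/- cells. Their longest transcripts are 94.4% identical and share 28.6% of their 50-base words, so that reads may be split between them. Clybl, a mitochondrial lyase, and Fut7, a fucosyltransferase that makes selectin ligands, also belonged to this group, with ratios of 2.03 and 2.34.

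The median SD of the log2 values over the 141 genes was 0.286 in WT and 0.202 in Irf1-/- libraries, and over the 9276 tested genes with a mean of at least 50 it was 0.0906 and 0.0966. The levels of the 2 sets differ, so that the spreads are not compared at equal depth. Many of the 141 genes were low in WT, where 59 had a mean below 50 and the median gene stood at the 21.5 percentile of the genes tested. WT replicate 3 was the highest WT library in 80 of the 141 genes, or 56.7%, and in 41.6% of the genes tested. Irf1-/- replicate 3 was the highest of its genotype in 78, or 55.3%, against 38.9% of the genes tested. Against WT replicate 3 alone, the WT library that carried Xist like the Irf1-/- libraries, the ratio of the Irf1-/- mean had a median of 2.33. It lay between 1.36 and 19.0, below 2 in 38 genes and below 1.5 in 3, which were Clybl, Pycr1 and Ddit3. Within replicate 3 the ratio was at least 2 in 108 genes, and within replicates 1 and 2 in 124. The part of sex and of library depth in these differences was not tested beyond these values.

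**Figure D5:**
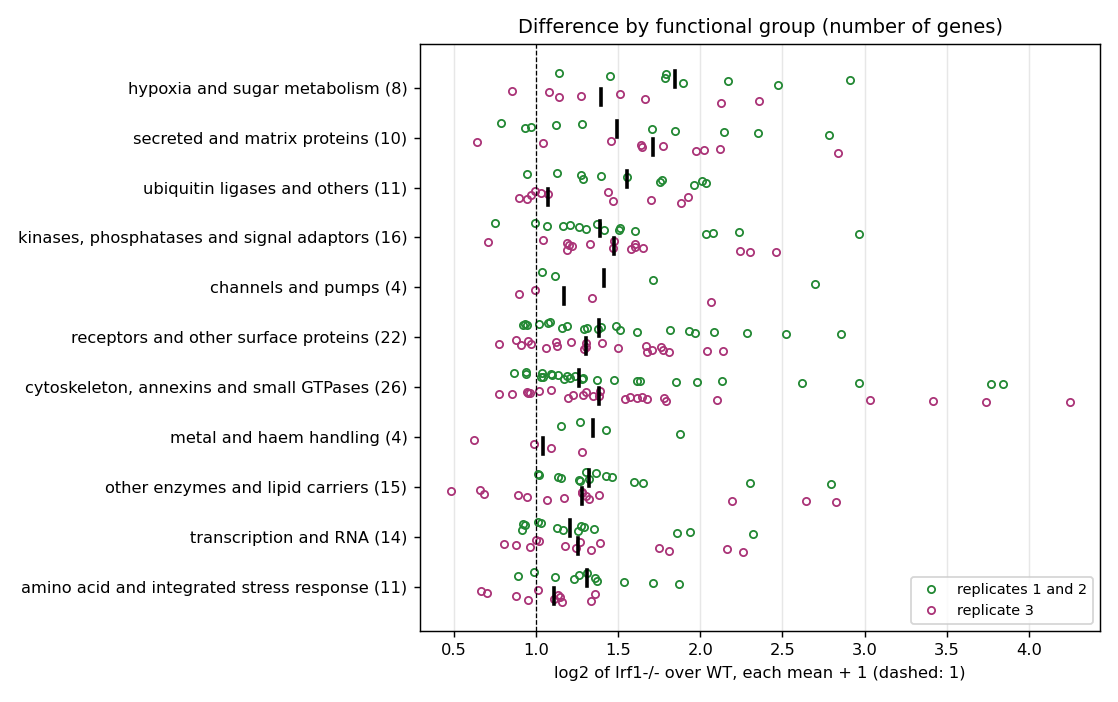
Log2 of the Irf1-/- over the WT level, each mean plus 1, for each of the 141 genes (points) by functional group, computed within replicates 1 and 2 (green) and within replicate 3 (purple), with black bars at the medians and the number of genes in parentheses. All points lie above 0 because the genes were chosen so, the dashed line marks a ratio of 2, and the median within replicates 1 and 2 exceeds that within replicate 3 in 7 of the 11 groups, the hypoxia and amino acid groups among them.

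Irf1-/- replicate 2, which had the highest myeloid marker sum, was the highest Irf1-/- library in 38 genes, or 27.0%, against 31.1% of the genes tested. It exceeded both other Irf1-/- libraries by more than 1.5-fold in 2 genes, App and Ier3. The condition on overlap left out genes high in this library alone. Neither count therefore shows the part of myeloid cells, which was not tested. Applied without this library, the conditions for inclusion gave 148 genes, of which 130 were among the 141, an overlap that the shared libraries largely fix.

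Over the 119 genes with a RefSeq promoter, AANNGAAA, the interferon-stimulated response element, was found in 16 or 13.4%, against 17.4% of all genes tested. The STAT letters TTCNNNGAA occurred in 7.56% against 6.91%. Larger differences were seen for the AP-1 letters TGANTCA with 10.1% against 4.32%, the GATA letters AGATAA with 11.8% against 6.12%, and the TATA box TATAAA with 15.1% against 6.29%. The RUNX letters TGTGGT stood in 10.9% against 12.2% and the SMAD letters CAGACA in 18.5% against 15.1%. Promoters with fewer than 5 CpG dinucleotides made up 12.6% of the 119 and 6.01% of the genes tested, so that base composition differed along with the motifs, and no test was made of these shares. Each motif was counted on both strands, and a match describes the letters of the window and no binding.

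The remaining 11 genes were ubiquitin ligases or fitted none of the groups, with ratios between 2.11 and 3.79. Asb2 and Neurl3 encode parts of ubiquitin ligases, Dtx1 a regulator of Notch signalling and Casp6 a caspase. Neurl3, the neighbour of Arid5a on chromosome 1, was read at 73.6, 80.5 and 90.4 in WT and 203, 207 and 192 in Irf1-/- libraries. The strand setting of the counting was not given in the sources used here, so that reads from overlapping genes on opposite strands may have been mixed. Overlaps of more than 10% of exon bases concerned 5 of the 141 genes, Klc3, Angptl6, Paqr3, Aldh1l2 and Arhgef11, and 101 genes shared no 50-base word with another gene.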

How the data were processed

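RNA-Seq libraries of 3 WT and 3 Irf1-/- mouse T-cell cultures were analysed, grown with IFN-γ in Th9 medium and taken at day 2. According to the study's methods and the submitters' processing notes, poly(A) RNA was read single-end, reads were aligned to GRCm38 with STAR 2.4.0b, counted per Ensembl gene with featureCounts and normalized with DESeq2 1.12.3. The deposited signal is a normalized count, each count having been divided by the authors by a size factor of its library. Whole reads were recovered for 100% of the values in all 6 libraries (tolerance 0.01 reads), giving 5639788 to 13348230 reads on genes. How reads matching several genes were treated and the strand setting were not given in the sources used here.

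The 141 genes were selected by applying the stated conditions in a script. Genotypes were compared in R 4.3.3 with limma 3.58.1 (eBayes with trend) on log2 of the normalized count plus 1, keeping the 11379 genes whose mean reached 10 and calling genes at a Benjamini-Hochberg adjusted p below 0.05. Fold changes are on this scale and understate changes of low genes. limma was used because the values are normalized, and count models (edgeR 4.0.16, DESeq2 1.42.0) were fitted to the recovered reads as alternatives. The scripts were tested on simulated data. The study describes 3 independent biological samples a group, and the labels do not tie them to single animals. Alternatives changed the pseudocount, the filter, the scaling, the trend, the replicate block, the tool and the libraries used.

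The genes, the 11 pathway lists, the 10 marker lists and the tests were chosen with earlier results of these data known. The functional groups, the 15 gene families and the amino acid, hypoxia and metal motifs were chosen after the values had been seen. Named genes were Lad1, Basp1 and Alpk2, the 12 with the largest ratio, the 12 with the highest Irf1-/- mean, those in a list, in a neighbouring or paralogous pair or near Irf1, those next to a threshold, those under 1.5 against WT replicate 3, and family genes with an adjusted p below 0.05. Others were named by function. Gene symbols matched 40340 of 41388 identifiers. Promoter sequences (300 bases, RefSeq, GRCm38.p6) were found for 119 of the 141 genes. Shared sequence was counted as 50-base words in annotated transcripts with Python 3.11.15, and identity was aligned with Biopython 1.88. Values of some single genes are not reported here.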

Additional observations from a re-analysis of the deposited data

How the results depend on the processing

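Membership rested on round limits. A ratio of at least 1.5 gave 370 genes and of at least 3 gave 43, means of at least 25 and 100 gave 203 and 100, TMM factors 145, quantile normalization 122, and no condition on overlap 151. Leaving out each library in turn gave 128 to 172 genes, and leaving out WT replicates 1 and 2, which held Y-linked transcripts, gave 126, of which 103 were among the 141. Of the 141, limma called all 141 and DESeq2 on recovered reads 139, without the trend 133 were called, and without WT replicates 1 and 2 116.

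Over all genes tested, 1293 were called higher and 1406 lower. Without the trend 807 were lower, and without WT replicates 1 and 2 407 were higher and 403 lower. On omission of single libraries, the genes called higher ranged from 805 to 1380 and those lower from 824 to 1471. The counts fell by more than 1.5 times without WT replicate 1 (814 and 824), WT replicate 2 (805 and 824) or Irf1-/- replicate 2 (810 and 895). List genes other than the 141 called in either direction numbered 47, but 26 without the trend and 13 without WT replicates 1 and 2, and 28 to 55 with each library left out, where WT replicates 1 and 2 gave 28 each and Irf1-/- replicate 1 gave 31. Removing samples leaves fewer degrees of freedom. Where an arm held 1 library, it was assumed to vary like the other group.

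With the replicate number as a block, 1893 genes were higher and 2116 lower. All 141 stayed called, which, like the calls of the 141 under other settings, is largely fixed by the choice of genes. The numbers were not taken to pair the samples, since deviations of same-numbered libraries correlated by 0.0922, 0.2686 and 0.3209, although each library correlated best with its own number, a hint from the data and not from the design.

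For 49 named genes with up to 19 alternatives each, 853 of 925 log2 fold changes moved by less than 1 SD, and the lowest was 0.42. Of the 72 that moved further, 30 were without WT replicates 1 and 2 and 23 within replicate 3. That 0 changed sign when libraries were left out or split by number is fixed by the choice of genes and shows nothing about stability. The splits by replicate number and the selection without WT replicates 1 and 2 were added after seeing the data. Low counts limit Tnni1, Inhba, Car8 and Map1b most: with a pseudocount of 10 the log2 fold change of Tnni1 was 2.64 rather than 3.81.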

Other observations

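Some genes set aside by name met all the numeric conditions. Akr1c18, a steroid-metabolising aldo-keto reductase and a paralog of Akr1c12 and Akr1c13, was read at 16.2, 16.8 and 28.9 in WT and at 308, 351 and 659 in Irf1-/- libraries, a ratio of 20.3 that exceeded those of all 141 genes. The kinase gene Sgk1 stood at 89.9, 92.6 and 138 in WT and at 718, 695 and 829.5 in Irf1-/- libraries, a ratio of 6.95. The steroid synthesis gene Cyp11a1 had a ratio of 3.98, Il18r1 of 3.41, Batf3 of 2.89, Socs3 of 2.44 and the glucose transporter gene Slc2a3 of 2.23. On the X chromosome, Lonrf3 had a ratio of 2.41, Maged1 of 2.19 and Cask of 2.14. Replicate 3 was the highest WT and the highest Irf1-/- library for Akr1c18, Sgk1, Cyp11a1, Batf3 and Slc2a3.

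A prostaglandin synthase gene below the limit on the mean, Ptgs1, was read at 4.99, 7.21 and 2.46 in WT and at 43.0, 52.7 and 24.3 in Irf1-/- libraries (log2 fold change 2.82, standard error 0.409, adjusted p = 0.000921 from limma), and was noticed after its values were seen. Its relative Ptgs2 stood at 427 in Irf1-/- replicate 2 and below 20 in the other 5 libraries. That library also had the highest myeloid marker sum, and the part of other cells in this value was not tested.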
